A study of Mus musculus with 41 samples.

Results

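The genes described here are 37 enzymes, carriers and target genes of fatty acid oxidation, out of 24511 genes in the expression table of a mouse study of fatty liver, steatohepatitis (NASH) and liver tumours (HCC). They were taken by symbol from a list that was drawn up with earlier results of these data known, and all 37 were found and tested. By the site and step at which their products work, 19 are mitochondrial, 10 peroxisomal and 1, Bdh1, ketogenic. The other 7 take up or activate fatty acids or are other known targets of the nuclear receptor PPAR alpha. The mitochondrial class includes Eci2 and Crat, whose proteins also work in peroxisomes.

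Liver burns fatty acids in mitochondria and in peroxisomes. Fatty acids are taken up, joined to coenzyme A and carried into mitochondria as acylcarnitines by the carnitine shuttle, where beta-oxidation cuts them to acetyl-CoA, much of which the fasting liver turns into ketone bodies. Peroxisomes shorten very long and branched chains and dicarboxylic acids. PPAR alpha, which fatty acids bind and activate, pairs with the retinoid X receptor on repeats of a short DNA sequence and drives genes of each of these steps.

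PolyA RNA was sequenced from liver or tumour tissue of male C57BL/6 mice. The libraries used here number 35 in 11 groups, of which 9 hold 3 libraries and 2 hold 4. The stages are NC, a healthy liver whose abbreviation the labels do not explain (12 libraries), HFD control, a fatty liver called healthy on a high-fat diet (6), NASH on that diet (6) and HCC on that diet (11). NC livers came from the genotypes named MupHe, IgAkMup, CD8kMup and B6, and HFD control livers from IgAkCLM and B6. NASH livers came from MupHe and IgAkMup, and tumours from CD8kMup (3), IgAkMup (4) and MupHe (4). The labels do not spell out the alleles, the promoters or the ages behind these names, which are kept as given. Mup stands in every genotype name of the NASH and HCC groups but in none of the HFD control groups. Between HFD control livers and NASH livers or tumours, stage and genotype therefore cannot be told apart. Nothing in the labels says that libraries of a group are separate animals, so p-values measure the spread between these libraries, which may be technical.

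Values are the authors' log2 expression values, in which 1 unit is a 2-fold difference. They are not scaled by gene length, so levels are compared between groups and not between genes. The first component of variation over all genes carried 47.9% of the variance, and on the second, with 12.6%, the tumours MupHe HCC 3, IgAkMup HCC 5 and IgAkMup HCC 9 stood apart from the rest. Library names also carry tags (SS or Tri) that the labels do not explain: all HCC, B6 HFD control and IgAkMup NASH libraries are SS, and all NC, IgAkCLM HFD control and MupHe NASH libraries are Tri. The summed level of 9 hepatocyte markers, none of them at 0, lay at 19.9 to 20.3 in NC, 20.2 to 20.4 in HFD control, 19.99 to 20.32 in NASH and 19.4 to 20.9 in HCC libraries, a sum that is mostly Alb. The sum over 7 cholangiocyte markers reached 15.3 in tumours, against at most 11.01 in NASH livers, and its part in the results was not tested. In bulk tissue, fewer cells of a type and less RNA per cell cannot be told apart.

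**Figure D1:**
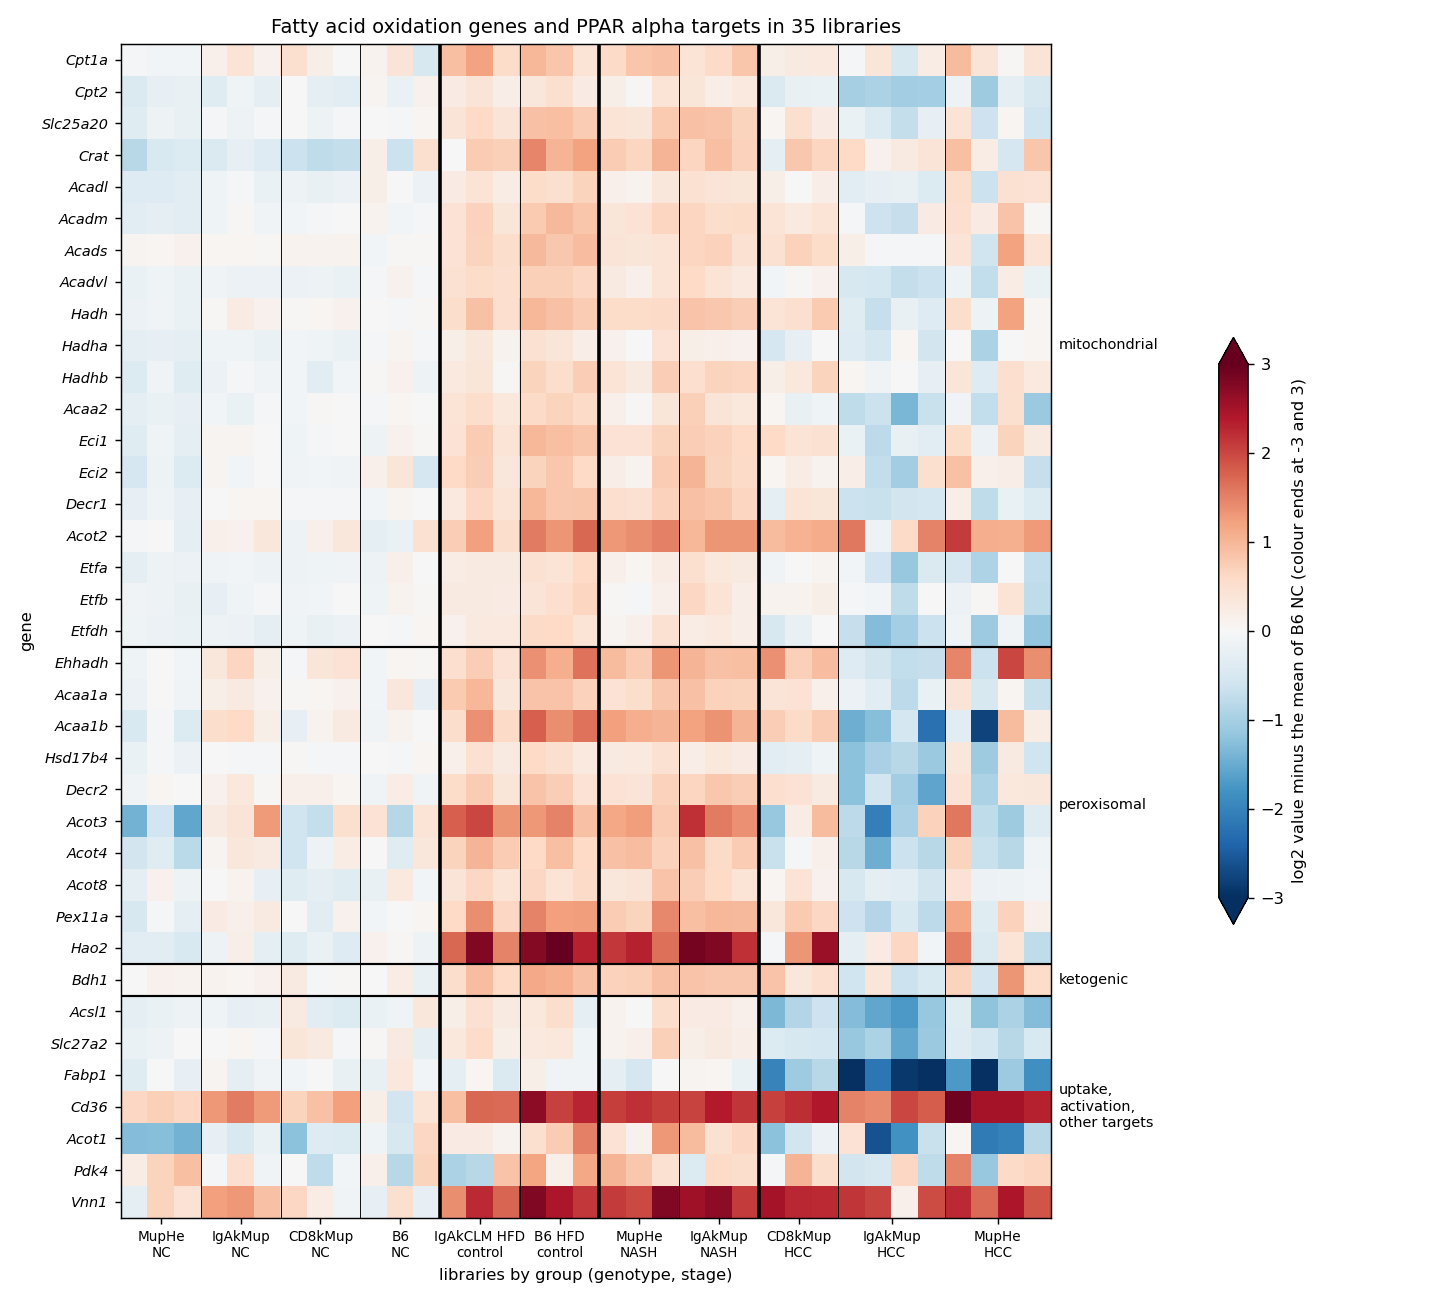
Each cell is 1 gene in 1 library, as its log2 value minus that gene's mean in B6 NC livers, with red higher and blue lower and the colour ending at -3 and 3. Most rows are red in the HFD control and NASH columns, and tumours are mixed, with Fabp1, Acsl1 and Slc27a2 blue and Cd36 and Vnn1 red in nearly all of them.

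The first comparison set the high-fat diet livers of B6 mice against their NC livers. Of the 37 genes, 23 were higher in B6 HFD control livers than in B6 NC livers and none was lower, at an adjusted p under 0.05 in limma, where 9.59% of all 12337 genes tested were higher and 11% lower. The median log2 difference of the 37 was 0.80, and that of all genes tested was 0.00. The rise took in 13 of 19 mitochondrial genes (median 0.69), 7 of 10 peroxisomal genes (median 1.01), Bdh1, and 2 of 7 genes of uptake, activation and other targets.

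Hao2, a peroxisomal oxidase of long-chain hydroxy acids, was at 6.62, 7.20 and 6.18 in B6 HFD control livers, against 3.998, 3.91 and 3.73 in B6 NC livers. That difference of 2.79 ± 0.47 (SE, n = 3 each, adjusted p = 0.000131) was the largest among the members. Vnn1, a pantetheinase and well-known PPAR alpha target, was at 11.28, 10.93 and 10.60 in B6 HFD control livers, against 8.26, 8.98 and 8.24 in B6 NC livers, a difference of 2.44 ± 0.36 (SE, adjusted p = 2.75e-05). Cd36, a fatty acid translocase of the plasma membrane, was at 11.92, 11.30 and 11.54 in B6 HFD control livers, against 9.41, 8.66 and 9.66 in B6 NC livers. Its difference was 2.34 ± 0.22 (SE, adjusted p = 3.14e-08). The macrophage and adipocyte types also express Cd36: the summed markers of macrophages lay at 10.6 to 11.6 in NC, 11.3 to 12.0 in HFD control, 11.4 to 11.9 in NASH and 11.3 to 12.4 in HCC libraries, and those of adipocytes, of which Lep was at or below 0 in all 35 libraries, Plin1 and Retn in 34 and Adipoq in 24, so that the sum rests on Cfd, Lipe and Cidea, at 7.29 to 8.97 in NC, 7.26 to 8.91 in HFD control, 7.58 to 8.95 in NASH and 6.59 to 8.28 in HCC libraries. Their part in the Cd36 result was not tested. In 32 members, Hao2, Vnn1 and Cd36 among them, every HFD control library lay above every NC library, as 21.7% of all genes did in this comparison of 3 against 3 libraries.

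Among peroxisomal genes, Ehhadh, the bifunctional enzyme of the peroxisomal pathway, was at 12.62, 12.34 and 12.86 in B6 HFD control livers, against 11.16, 11.29 and 11.27 in B6 NC livers, 1.37 ± 0.35 higher (SE, adjusted p = 0.00676). Pex11a, a membrane protein of peroxisome division, was at 9.54, 9.30 and 9.32 in B6 HFD control livers, against 7.98, 8.08 and 8.13 in B6 NC livers, 1.32 ± 0.25 higher (SE, adjusted p = 0.000474). The thiolase Acaa1b was 1.60 ± 0.50 higher (SE, adjusted p = 0.0230). Smaller rises were called for the thiolase Acaa1a (0.80), the dienoyl-CoA reductase Decr2 (0.67) and the thioesterase Acot8 (0.53). The thioesterases Acot3 and Acot4 and the second bifunctional enzyme Hsd17b4 had differences of 1.23, 0.70 and 0.46 that did not pass the threshold.

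Of the mitochondrial genes, Cpt1a, the entry gate of the carnitine shuttle and the step malonyl-CoA blocks, was at 12.33, 12.17 and 11.75 in B6 HFD control livers, against 11.44, 11.74 and 10.86 in B6 NC livers, 0.74 ± 0.23 higher (SE, adjusted p = 0.0209). All of these HFD control values lay above the NC values, although the lowest HFD control library (11.75) hardly exceeded the highest NC library (11.74). Slc25a20, which exchanges acylcarnitine for carnitine across the inner membrane, rose by 0.84, and Crat, the short-chain carnitine acetyltransferase, rose by 1.24 ± 0.29 (SE, adjusted p = 0.00343). The acyl-CoA dehydrogenases Acadm, Acads, Acadvl and Acadl, which start each round for medium, short, very long and long chains, rose by 0.86, 0.90, 0.68 and 0.57. Hadh and Hadhb, of the later steps of the round, rose by 0.88 and 0.65, as did Decr1 (0.88) and Eci1 (0.91), which handle double bonds of unsaturated chains. The thioesterase Acot2 rose by 1.53 ± 0.30 (SE, adjusted p = 0.000706) and Etfa, which passes electrons to the respiratory chain, by 0.50. The other 6 mitochondrial genes were not called, with differences of 0.69 for Eci2, 0.61 for Acaa2, 0.53 for Etfdh, 0.51 for Etfb, 0.36 for Cpt2 and 0.34 for Hadha.

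Bdh1, which interconverts acetoacetate and 3-hydroxybutyrate, was at 12.12, 12.06 and 11.88 in B6 HFD control livers, against 11.01, 11.21 and 10.77 in B6 NC livers. Its groups did not overlap, with a difference of 1.02 ± 0.27 (SE, adjusted p = 0.00875). A further 3 genes that bring fatty acids to the pathway had differences close to 0 that did not pass the threshold: Acsl1, the main long-chain acyl-CoA synthetase of liver (0.19, adjusted p = 0.621), Slc27a2, a transporter and very-long-chain acyl-CoA synthetase (0.16, adjusted p = 0.573), and Fabp1, the liver fatty acid binding protein (-0.01, adjusted p = 0.992). Acot1 and Pdk4 differed by 0.92 and 0.83, also without a call. B6 HFD control and NC libraries differ in tag. With the IgAkCLM HFD control livers, which share the Tri tag, in place of the B6 HFD control livers, 4 members were higher than in B6 NC livers: Cpt1a (0.88), Hao2 (1.99), Cd36 (1.45) and Vnn1 (1.79), where 0.94% of all genes were higher. This exchange matches the tag but changes the genotype, so tag and genotype cannot be told apart in the lower count.

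NASH livers differed from NC livers of their own genotype in the same direction. In MupHe mice, where both stages carry the Tri tag, 14 members were higher in NASH than in NC livers and none lower, where 0.948% of all genes were higher and 0.981% lower. They were led by Hao2 (2.41), Acot3 (2.24), Vnn1 (2.01), Acot2 (1.51), Cd36 (1.46) and Acot4 (1.41). In IgAkMup mice, where the stages differ in tag, 16 members were higher in NASH than in NC livers, where 5.53% of all genes were, led by Hao2 (2.70) and Vnn1 (1.31). With the Tri-tagged MupHe NASH livers in place of the IgAkMup ones, which changes the genotype as well, 3 were (0.592% of all genes). These counts moved with single libraries and with the spread assumed. Leaving out MupHe NASH 6, MupHe NC 1 or MupHe NC 3 left 6, 8 and 9 calls for MupHe, where 59, 70 and 57 of 12337 genes were higher. Leaving out IgAkMup NASH 2, IgAkMup NASH 3, IgAkMup NC 1 or IgAkMup NC 3 left 7, 8, 8 and 7 for IgAkMup. There 246, 291, 321 and 362 of 12337 genes were higher. A fit of only the groups compared gave 32 and 34. The shares of all genes above belong to the fit of all groups and are no background for these last counts. Among NC livers, 1 member differed between the Mup genotypes and B6, Cd36, which averaged 10.22 over the Mup genotypes and 9.24 in B6, 0.98 ± 0.18 higher (SE, adjusted p = 0.0113), where 0.17% of all genes were higher, and it was not called without B6 NC 1 or without B6 NC 2.

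No member differed between NASH livers (MupHe and IgAkMup, n = 6) and HFD control livers (B6 and IgAkCLM, n = 6) at an adjusted p under 0.05 in limma, where 1.32% of all genes did. At an unadjusted p under 0.05 there was 1, Acadvl, where 12.2% of all genes passed. Acadvl lay between 11.65 and 12.10 (median 11.86) in NASH livers and between 11.96 and 12.21 (median 12.09) in HFD control livers, a difference of -0.23 ± 0.10 (SE, adjusted p = 0.314). Log2 differences of the 37 ran from -0.23 to 0.25 with a median of -0.07. The median was -0.12 for mitochondrial, -0.07 for peroxisomal and 0.09 for uptake, activation and other target genes, and Bdh1 differed by -0.07. Within the Tri tag (MupHe NASH against IgAkCLM HFD control, where 0.559% of all genes were called) and within the SS tag (IgAkMup NASH against B6 HFD control, 0.251%) there were also 0 calls. At an unadjusted p under 0.05 there were 2 and 0 members, where 10.2% and 7.55% of all genes passed. Those 2 were Cd36, 0.67 ± 0.22 higher in MupHe NASH than in IgAkCLM HFD control livers (SE, adjusted p = 0.203), and Pdk4, a kinase that shuts off pyruvate oxidation, 1.08 ± 0.51 higher (SE, adjusted p = 0.474). Without regard to the test, every NASH library lay below every HFD control library in 13 members and above in 0 within the SS tag (8.71% and 10.1% of all genes), and below in 5 and above in 3 within the Tri tag (15.1% and 13.6%). With libraries weighted by their quality, 2 members were called in the pooled comparison, and the share of all genes in that fit is not reported here. Between the HFD control genotypes, 1 member differed, Cd36, which was at 10.15, 10.97 and 10.94 in IgAkCLM, against 11.92, 11.30 and 11.54 in B6 livers, 0.90 lower with an SE of 0.22 (adjusted p = 0.0167, where 1.44% of all genes were lower). That call was lost without B6 HFD control 1, without B6 HFD control 3 or without IgAkCLM HFD control 1. IgAkCLM HFD control libraries are Tri and B6 ones SS, so genotype and tag cannot be told apart here.

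Tumours were compared with NASH livers of the MupHe and IgAkMup genotypes, 8 against 6 libraries, of which all but the MupHe NASH livers carry the SS tag. All 37 log2 differences were below 0, and 31 members were lower in HCC than in NASH livers at an adjusted p under 0.05 in limma, where 22.9% of all genes were lower and 25.5% higher. The median over the members was -0.77, and over all genes 0.01. By class, 16 of 19 mitochondrial genes fell (median -0.62), as did 10 of 10 peroxisomal genes (median -1.12), Bdh1, and 4 of 7 genes of uptake, activation and other targets (median -1.13). In 10 members every tumour of these genotypes lay below every NASH liver, as in 5.55% of all genes: Cpt2, Decr1, Etfa, Etfdh, Acaa1a, Acaa1b, Hao2, Acsl1, Slc27a2 and Fabp1. After quantile normalization 22 members were called, with median differences of -0.40 for mitochondrial and -1.05 for peroxisomal genes, and the calls of Cpt1a, Acadl, Acadm, Hadh, Hadha, Eci2, Etfb, Ehhadh and Bdh1 were lost. Without the 3 tumours that stood apart, 33 were called. Of the 9 hepatocyte markers, 4 were also lower in HCC than in NASH livers, Apoa2 (-1.31), Ttr (-1.18), Serpina1a (-0.86) and Apob (-0.42), 1 was higher, Trf (0.84), and the other 4, with Alb at -0.06, were not called. Their part in the members' falls was not tested.

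Fabp1 had the largest fall. It lay between 10.27 and 14.38 (median 12.95) in HCC and between 14.96 and 15.56 (median 15.36) in NASH livers, a difference of -2.78 ± 0.41 (SE, adjusted p = 2.61e-06). The tumours were spread widely, all of them under the tight range of the NASH livers. Slc27a2 lay between 11.59 and 12.78 (median 12.28) in HCC and between 13.27 and 13.88 (median 13.34) in NASH livers, a difference of -1.13 ± 0.12 (SE, adjusted p = 1.19e-08). Acsl1 lay between 11.59 and 12.95 (median 12.05) in HCC and between 13.30 and 13.84 (median 13.51) in NASH livers, a difference of -1.41 ± 0.16 (SE, adjusted p = 3.21e-08). These 3 genes, which bind, import and activate fatty acids ahead of either organelle, are ones whose differences between B6 HFD control and NC livers did not pass the threshold. Acot1, a cytosolic thioesterase, fell by 1.85 (SE 0.35, adjusted p = 8.72e-05). The remaining 3 of the class did not pass the threshold: Vnn1 (-0.54, adjusted p = 0.0630), Pdk4 (-0.44, adjusted p = 0.288) and Cd36 (-0.03, adjusted p = 0.897), which lay between 10.67 and 12.15 in HCC and between 11.27 and 11.63 in NASH livers.

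**Figure D2:**
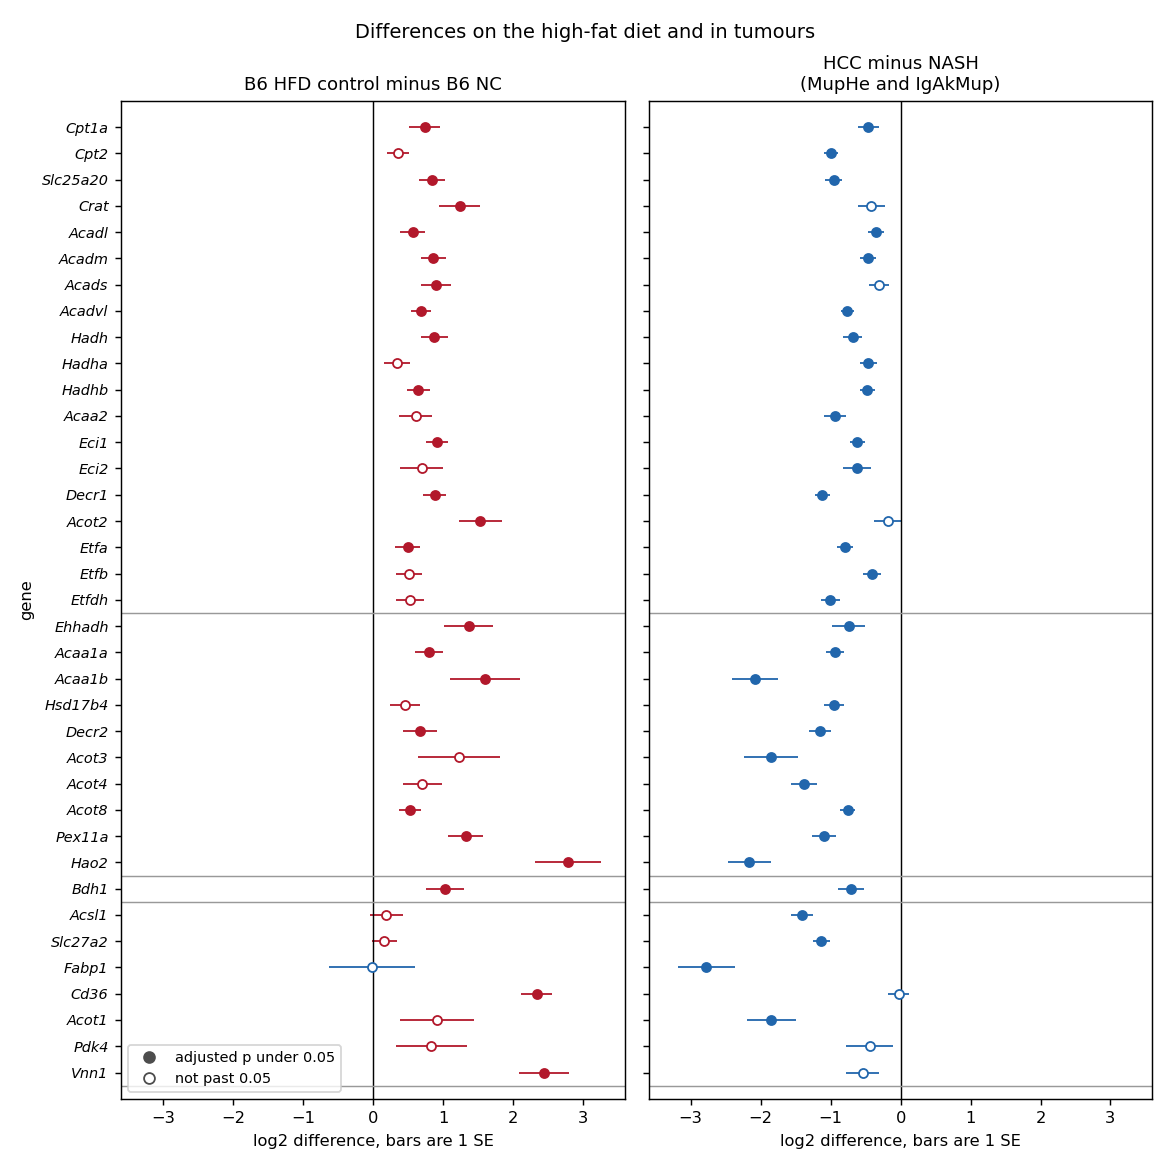
Log2 differences of the 37 genes with bars of 1 SE, on the left B6 HFD control minus B6 NC and on the right HCC minus NASH, with filled points at an adjusted p under 0.05 and open points otherwise. On the left 23 points are filled, all above 0, and on the right 31, all below 0, with Fabp1 farthest out at -2.78.

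PPAR alpha and its partner bind a direct repeat of the motif AGGTCA with 1 base between, AGGTCANAGGTCA. Promoter windows of 250 bases before to 50 after the start site were taken from RefSeq on the build GRCm38.p6, and 32 of the 37 members had one. The search took both strands, and a single AGGTCA also lies within each exact repeat. No member window held the exact repeat, which 0.0481% of 27025 genes held. With at most 1 mismatch it was found in 1 member (3.12% of 32, against 0.644% of all genes), Fabp1, and with at most 2 mismatches in 5 members (15.6%, against 4.4%). At least 1 AGGTCA was in 8 members (25%, against 18.1%). The stretch of the Fabp1 promoter before its annotated gene start, chr6:71199629-71199826 on the plus strand, is shown because Fabp1 fell most in tumours, with the match, which reads on the opposite strand and begins 67 bases before the start site of the table, in capitals.
Fabp1 promoter: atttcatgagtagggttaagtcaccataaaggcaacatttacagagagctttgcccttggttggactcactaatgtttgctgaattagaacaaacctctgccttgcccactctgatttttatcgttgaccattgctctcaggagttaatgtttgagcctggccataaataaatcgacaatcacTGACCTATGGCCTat
The matches with at most 2 mismatches follow as read on their own strand, with bases that equal the repeat in capitals, to show how far each departs from it. They lie in the windows chr9:108661886-108662185 (Slc25a20, plus strand), chr9:55512194-55512493 (Etfa, minus strand), chr12:84038129-84038428 (Acot4, plus strand) and chr5:17835847-17836146 (Cd36, minus strand).
Fabp1 match: AGGcCAtAGGTCA
Slc25a20 match: AGGTgAaAGGTCg
Etfa match: AGGgCAaAGGTaA
Acot4 match: cGGcCAaAGGTCA
Cd36 match: AaGTCAgAGGcCA
A match describes letters in the window and not a bound site, and of these 5 genes Cd36 was not called in HCC against NASH.

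The peroxisomal genes all fell with the genotypes pooled. In MupHe mice alone, mean Ehhadh was 12.29 in HCC and 12.25 in NASH livers. Hao2 lay between 3.12 and 5.39 (median 3.95) in HCC and between 5.52 and 6.74 (median 6.13) in NASH livers, a difference of -2.16 ± 0.31 (SE, adjusted p = 2.29e-06). Acaa1b lay between 9.47 and 13.21 (median 11.35) in HCC and between 13.28 and 13.60 (median 13.40) in NASH livers, a difference of -2.08 ± 0.33 (SE, adjusted p = 9.29e-06). With tumours of MupHe and IgAkMup mice, neither gene overlapped between the stages. In each the highest of these tumours, from a MupHe mouse, came close to the lowest NASH liver. The tumour CD8kMup HCC 8, outside this comparison, reached 6.46 in Hao2, within the NASH range. Acaa1a, the other copy of the peroxisomal thiolase, lay between 8.96 and 10.14 (median 9.50) in HCC and between 10.18 and 10.62 (median 10.44) in NASH livers, a difference of -0.94 ± 0.13 (SE, adjusted p = 1.58e-06). The thioesterases Acot3, Acot4 and Acot8 fell by 1.85, 1.38 and 0.76, and Decr2 and Pex11a by 1.15 and 1.10. Of the bifunctional enzymes, Hsd17b4 fell by 0.95 and Ehhadh by 0.74 (SE 0.23, adjusted p = 0.00966). Ehhadh overlapped widely: it lay between 10.50 and 13.23 (median 10.77) in HCC and between 12.00 and 12.58 (median 12.17) in NASH livers, with 3 tumours, all MupHe, above the highest NASH liver.

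In mitochondria falls were called at every step with the genotypes pooled, though not every fall was seen in each genotype. Of the carnitine shuttle, Cpt2, which rebuilds acyl-CoA inside, lay between 9.43 and 10.33 (median 9.52) in HCC and between 10.51 and 10.89 (median 10.73) in NASH livers, a difference of -0.99 ± 0.10 (SE, adjusted p = 8.13e-09). Slc25a20 fell by 0.95 and Cpt1a by 0.46 (SE 0.15, adjusted p = 0.0126), and Crat differed by -0.42, which did not pass the threshold (adjusted p = 0.0740). Among the dehydrogenases Acadvl fell by 0.77, Acadm by 0.47 and Acadl by 0.36, and Acads differed by -0.31 (adjusted p = 0.0708). Acadm averaged 12.06 in MupHe HCC and 12.14 in MupHe NASH livers, against 11.38 in IgAkMup HCC and 12.24 in IgAkMup NASH livers. For Acadl these means were 11.12 and 11.13 in MupHe, against 10.62 and 11.33 in IgAkMup. Mean Acadvl was lower in the tumours of both genotypes. Of the later steps, the thiolase Acaa2 fell by 0.94, Hadh by 0.69, and the subunits Hadha and Hadhb of the trifunctional protein by 0.46 and 0.48. After quantile normalization the differences were -0.02 for Cpt1a, -0.03 for Acadm, -0.06 for Acadl and Hadha and -0.27 for Hadh, without a call. Those of Cpt2 (-0.83), Slc25a20 (-0.81), Acaa2 (-0.49), Hadhb (-0.47) and Acadvl (-0.40) kept their calls.

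Decr1 had the largest mitochondrial fall. It lay between 9.89 and 10.85 (median 10.11) in HCC and between 11.12 and 11.54 (median 11.33) in NASH livers, a difference of -1.12 ± 0.11 (SE, adjusted p = 2.13e-09). The enoyl-CoA isomerases Eci1 and Eci2 fell by 0.62 and 0.63, and Acot2 differed by -0.18 (adjusted p = 0.479). The flavoproteins that hand the electrons on fell too: Etfdh, the dehydrogenase of the inner membrane, by 1.01, Etfa by 0.80 and Etfb by 0.41. Etfdh lay between 10.11 and 11.31 (median 10.54) in HCC and between 11.49 and 11.85 (median 11.63) in NASH livers. Bdh1 lay between 10.35 and 12.31 (median 10.95) in HCC and between 11.69 and 11.87 (median 11.80) in NASH livers, a difference of -0.71 ± 0.18 (SE, adjusted p = 0.00191), and 1 MupHe tumour exceeded every NASH liver.

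The diet comparison in B6 mice and the tumour comparison share no library. Of the 23 members higher in B6 HFD control than in NC livers, 18 (78.3%) were lower in HCC than in NASH livers, and these made up 58.1% of the 31 that were lower. Of all 37 members 83.8% were lower in HCC, so the share among the diet-raised ones is no higher than among the members at large. With the IgAkCLM HFD control livers, of another genotype than the B6 NC livers, 4 members, not 23, were higher on the diet. The other 13 fell in tumours without a call for diet: Fabp1, Acsl1, Slc27a2, Acot1, Acot3, Acot4, Cpt2, Acaa2, Hadha, Eci2, Etfb, Etfdh and Hsd17b4. Another 5, Cd36, Vnn1, Acot2, Crat and Acads, were higher on the diet and not called in tumours. Pdk4 was called in neither.

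Set against NC livers of the 3 Mup genotypes, tumours did not lie below as a class. Of the 37 members, 9 were higher and 8 lower in HCC (n = 11) than in NC livers (n = 9), where 31.7% of all genes were higher and 30.6% lower, and the median difference was 0.04. The split moved with the scaling: median centring gave 8 higher and 10 lower, and quantile normalization 16 higher and 4 lower. Mitochondrial genes had 6 higher and 3 lower, peroxisomal genes 1 higher and 2 lower, and Bdh1 differed by 0.15 without passing the threshold. Tumours were on the high-fat diet and SS-tagged and NC livers were Tri-tagged, so stage, diet and tag cannot be told apart here.

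Some members lay below NC livers in tumours. Fabp1 lay between 10.27 and 14.65 (median 13.47) in HCC and between 15.10 and 15.56 (median 15.36) in NC livers, a difference of -2.24 ± 0.34 (SE, adjusted p = 2.10e-06). Slc27a2 lay between 11.59 and 12.78 (median 12.64) in HCC and between 12.96 and 13.52 (median 13.14) in NC livers, a difference of -0.76 ± 0.10 (SE, adjusted p = 1.90e-07). These were the only 2 members in which every tumour lay below every NC liver, as 7.34% of all genes did. Acsl1 lay between 11.59 and 12.95 (median 12.09) in HCC and between 12.89 and 13.59 (median 13.09) in NC livers, a difference of -0.92 ± 0.13 (SE, adjusted p = 7.29e-07), with 1 tumour inside the NC range. Smaller falls were called for Hsd17b4 (-0.45), Etfdh (-0.40), Cpt2 (-0.35), Acaa2 (-0.32) and Decr2 (-0.31). Quantile normalization kept the calls of Fabp1, Slc27a2, Acsl1 and Cpt2 and turned the direction of Acaa2 (0.04).

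Other members lay above NC livers in tumours. Vnn1 lay between 8.65 and 10.99 (median 10.64) in HCC and between 8.23 and 9.79 (median 9.12) in NC livers, a difference of 1.44 ± 0.20 (SE, adjusted p = 6.32e-07). Cd36 lay between 10.67 and 12.15 (median 11.46) in HCC and between 9.86 and 10.79 (median 10.13) in NC livers, a difference of 1.17 ± 0.12 (SE, adjusted p = 5.21e-09). Acot2 lay between 4.92 and 7.17 (median 6.16) in HCC and between 4.78 and 5.41 (median 5.19) in NC livers, a difference of 1.03 ± 0.17 (SE, adjusted p = 6.26e-06). In Vnn1 and Acot2, 10 of 11 tumours lay above every NC liver, and in Cd36 9 did. Crat (0.91), Hao2 (0.79), Hadhb (0.36), Acadm (0.30), Acadl (0.23) and Eci1 (0.23) were also higher.

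**Figure D3:**
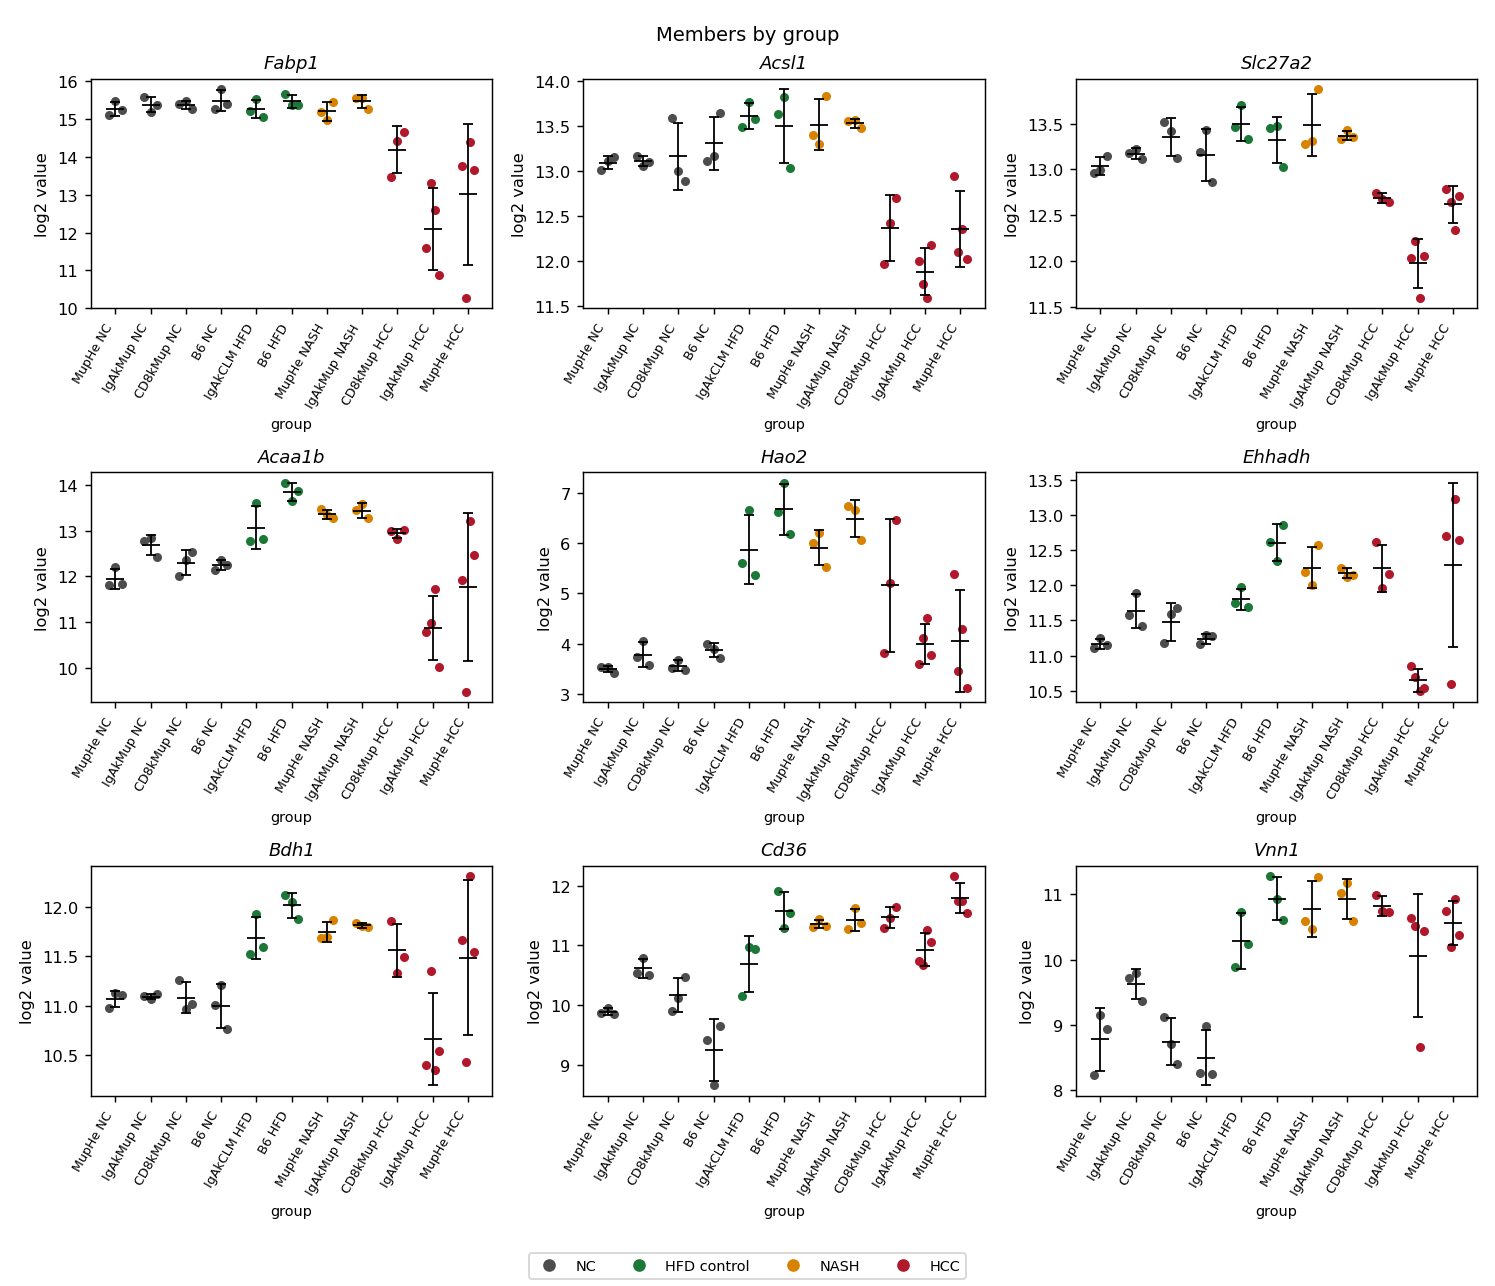
Log2 values of 9 members in every library of the 11 groups, with black bars for the group mean ± SD. Fabp1 lies at 14.96 or above in every liver and at 14.65 or below in every tumour, while Cd36 in tumours, at 10.67 to 12.15, spans the range of the NASH livers.

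CD8kMup tumours, which have no NASH group here, were compared with CD8kMup NC livers (n = 3 each). There 8 members were higher and 2 lower, where 16.8% of all genes were higher and 17% lower. Acsl1 was at 11.97, 12.42 and 12.69 in CD8kMup HCC, against 13.59, 13.00 and 12.89 in CD8kMup NC livers, a difference of -0.80 ± 0.24 (SE, adjusted p = 0.0100). Slc27a2 was at 12.75, 12.68 and 12.64 in CD8kMup HCC, against 13.52, 13.42 and 13.12 in CD8kMup NC livers, a difference of -0.67 ± 0.18 (SE, adjusted p = 0.00494). Fabp1 was at 13.47, 14.41 and 14.65 in CD8kMup HCC, against 15.39, 15.46 and 15.24 in CD8kMup NC livers, and its difference of -1.18 ± 0.61 (SE) did not pass the threshold (adjusted p = 0.137). All tumours lay above all livers in 23 members, as in 27.5% of all genes, and below all livers in 4, these 3 and Hsd17b4, as in 27.6% of all genes. Vnn1 (2.08), Hao2 (1.60), Cd36 (1.30), Crat (1.09), Acot2 (0.92), Hadhb (0.55), Eci1 (0.55) and Acot8 (0.54) were higher. Quantile normalization gave 16 higher and 0 lower, with Acsl1 and Slc27a2 no longer called, and a fit of these groups alone gave 20 calls. Shares of all genes under either setting are not reported here.

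In IgAkMup mice 33 members were lower in HCC than in NASH livers (20.7% of all genes were), with a median of -1.16. In MupHe mice 16 were (14.7% of all genes), with a median of -0.50. The count for MupHe was 2 when only its own groups were fitted. It was 21 (14.1% of all genes) with the IgAkMup NASH livers, which share the SS tag with the tumours but not the genotype, in place of MupHe NASH. Every IgAkMup tumour lay below every IgAkMup NASH liver in 34 members, where 19.6% of all genes did so. The difference of the tumour effects was tested directly and was called in 7 members, all with the more negative value in IgAkMup, where 5.2% of all genes were lower in this sense: Decr2, Hadh, Eci1, Ehhadh, Acadm, Pex11a and Cd36. MupHe HCC and NASH libraries differ in tag and IgAkMup ones do not, so tag and genotype cannot be told apart in this test. Its count was 18 without MupHe HCC 3 and 4 without MupHe HCC 2, where 2440 and 1222 of 12337 genes were called in either direction. It was 3 without MupHe HCC 4, MupHe NASH 1 or 2, or IgAkMup NASH 2 or 3, where 528 to 862 genes were called. The count was 0 when only these 4 groups were fitted.

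Among tumours alone, all of which are SS, the largest differences between these genotypes in members called were in 3 peroxisomal genes. Ehhadh was at 10.85, 10.69, 10.50 and 10.54 in IgAkMup HCC, against 12.71, 10.59, 13.23 and 12.64 in MupHe HCC, a difference of -1.65 ± 0.31 (SE, n = 4 each, adjusted p = 0.00148). Decr2 was at 9.17, 9.84, 9.36 and 8.81 in IgAkMup HCC, against 10.83, 9.44, 10.73 and 10.74 in MupHe HCC, a difference of -1.14 ± 0.21 (SE, adjusted p = 0.00122). Pex11a was at 7.45, 7.17, 7.61 and 7.27 in IgAkMup HCC, against 9.22, 7.70, 8.75 and 8.20 in MupHe HCC, a difference of -1.09 ± 0.22 (SE, adjusted p = 0.00264). In Ehhadh and Decr2 a single MupHe tumour, MupHe HCC 3, fell into the IgAkMup range, and in Pex11a the groups did not overlap, as in 2.2% of all genes. In all, 13 members were lower in IgAkMup than in MupHe tumours, where 6.01% of all genes were. The count was 23 without MupHe HCC 3, where 2895 of 12337 genes were called in either direction. It was 28 without the 3 tumours that stood apart, but 0 when only these groups were fitted and 7 with quality weights. Shares of all genes for these last counts are not reported here. The summed cholangiocyte markers lay at 12.1 to 15.3 in IgAkMup HCC and at 9.59 to 12.6 in MupHe HCC, and the hepatocyte markers at 19.7 to 20.9 in IgAkMup HCC and at 19.4 to 20.1 in MupHe HCC. Their part in these differences was not tested.

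Cd36 was at 10.74, 10.67, 11.26 and 11.06 in IgAkMup HCC, against 12.15, 11.75, 11.74 and 11.54 in MupHe HCC, a difference of -0.87 ± 0.19 (SE, adjusted p = 0.00591), with no overlap. Against NASH livers it differed by -0.49 in IgAkMup tumours (adjusted p = 0.0561) and by 0.44 in MupHe tumours (adjusted p = 0.111). Bdh1 was at 10.40, 11.35, 10.35 and 10.54 in IgAkMup HCC, against 11.67, 10.42, 12.31 and 11.55 in MupHe HCC, a difference of -0.83 ± 0.24 (SE, adjusted p = 0.0264).

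Between CD8kMup and MupHe tumours 0 members were called in limma, where 1.32% of all genes were, with a smallest adjusted p of 0.102. At an unadjusted p under 0.05, 7 members were higher, where 16.2% of all genes passed in either direction. Leaving out MupHe HCC 2, MupHe HCC 4 or CD8kMup HCC 3 gave 4, 6 and 2 calls, all higher in CD8kMup, where 224, 493 and 82 of 12337 genes were higher. Against IgAkMup tumours, a comparison added after the other values were seen, 23 members were higher in CD8kMup, where 11.8% of all genes were, with a median of 0.70. Acaa1b was at 13.00, 12.82 and 13.01 in CD8kMup HCC, against 10.78, 10.98, 11.73 and 10.02 in IgAkMup HCC, a difference of 2.07 ± 0.47 (SE, adjusted p = 0.00294). Ehhadh and Decr2 were 1.59 and 1.51 higher. A fit of these groups alone called 8.

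**Figure D4:**
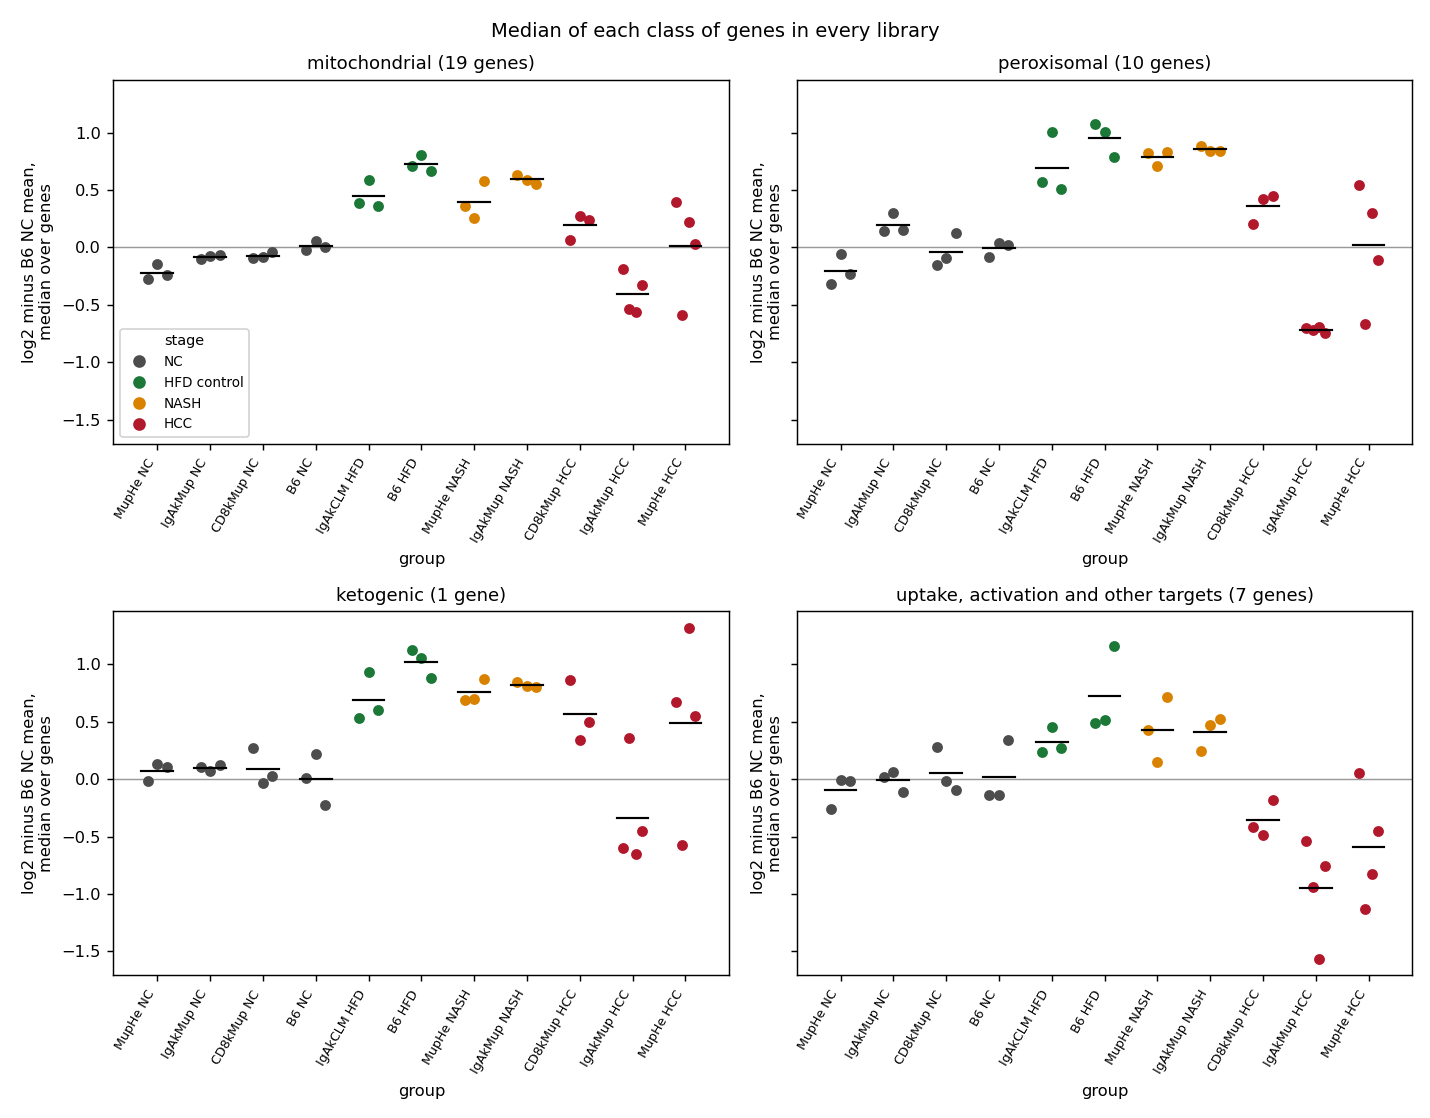
Each point is 1 library, as the median over the genes of a class of log2 value minus the B6 NC mean, with the bar at the group mean. The 4 IgAkMup tumours lie between -0.74 and -0.70 for peroxisomal genes, and the 4 MupHe tumours spread between -0.66 and 0.55.

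For peroxisomal genes the median per library against B6 NC was 0.20 to 0.45 in CD8kMup HCC, -0.74 to -0.70 in IgAkMup HCC and -0.66 to 0.55 in MupHe HCC, and 0.51 to 1.08 in the HFD control livers. For mitochondrial genes it was 0.07 to 0.27 in CD8kMup HCC, -0.56 to -0.19 in IgAkMup HCC and -0.59 to 0.39 in MupHe HCC. MupHe HCC 2 had the highest tumour value in 15 members and MupHe HCC 4 in 10, while MupHe HCC 3 had the lowest in 10, IgAkMup HCC 8 in 12 and IgAkMup HCC 7 in 9. The number of members below the lowest NASH liver was 17 in MupHe HCC 2 and 19 in MupHe HCC 4, and 36 in IgAkMup HCC 7. In 8 members all 11 tumours lay below every NASH liver: Cpt2, Decr1, Etfdh, Acaa1a, Acaa1b, Acsl1, Slc27a2 and Fabp1. For the MupHe and IgAkMup tumours alone, 5.55% of all genes lay below every NASH liver. Shares of all genes for all 11 tumours and for single tumours were not computed, so these counts have no background beside them.

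Genes of the pathway outside the 37 were taken from other lists. Ppara itself, the receptor, lay between 10.07 and 11.23 (median 10.62) in HCC and between 11.18 and 11.71 (median 11.40) in NASH livers, a difference of -0.78 ± 0.14 (SE, adjusted p = 5.55e-05). Ppargc1a, its coactivator, differed by -0.16 ± 0.13 (SE, adjusted p = 0.303). Of 21 regulators, 7 were lower and 2 higher, with Lpin1 (-1.08) and Sirt3 (-0.74) beside Ppara among the largest falls and Ppard (0.73) and Prkaa1 (0.43) higher. Against NC livers, Ppara was 0.60 lower (SE 0.12, adjusted p = 8.97e-05) and Ppargc1a 0.46 lower in tumours. Between NASH and HFD control livers Ppara differed by -0.40 (adjusted p = 0.233), and of these regulators Lpin1 (-1.78 ± 0.37, SE, adjusted p = 0.00934) and Hnf4a (-0.40) were lower in NASH.

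Of the genes of ketone body metabolism outside the 37, Acat1, a mitochondrial thiolase, was lower in HCC than in NASH livers (-0.58). Oxct1, which burns ketone bodies and is nearly silent in normal hepatocytes, was 0.82 higher, and the carrier Slc16a1 was 0.54 higher.

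Of 17 further peroxisomal oxidation genes tested, 12 were lower in HCC than in NASH livers and none higher, led by Nudt7 (-2.15), Scp2 (-1.89) and Phyh (-1.44). All 15 peroxins, the proteins that build peroxisomes, were lower, with a median of -0.46. Of 12 further mitochondrial genes 6 were lower, led by Acad11 (-1.25), Acadsb (-1.15) and Ivd (-0.99), and Acot9 was 0.89 higher.

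Other PPAR alpha targets split. Cyp4a14, an omega-hydroxylase of fatty acids, lay between 6.63 and 11.07 (median 7.59) in HCC and between 12.73 and 13.90 (median 13.14) in NASH livers, a difference of -5.11 ± 0.48 (SE), and Cyp4a10 differed by -3.75. Plin4, of the lipid droplet coat, fell by 1.75. Fgf21, a liver hormone of fasting and stress, lay between 7.17 and 8.48 in HCC and between 5.06 and 6.45 in NASH livers, 2.00 ± 0.26 higher (SE), and Ucp2 was 0.49 higher. In all, 8 of 12 such targets fell in HCC against NASH and 2 rose, where 9 of 12 were higher in B6 HFD control than in NC livers.

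**Figure D5:**
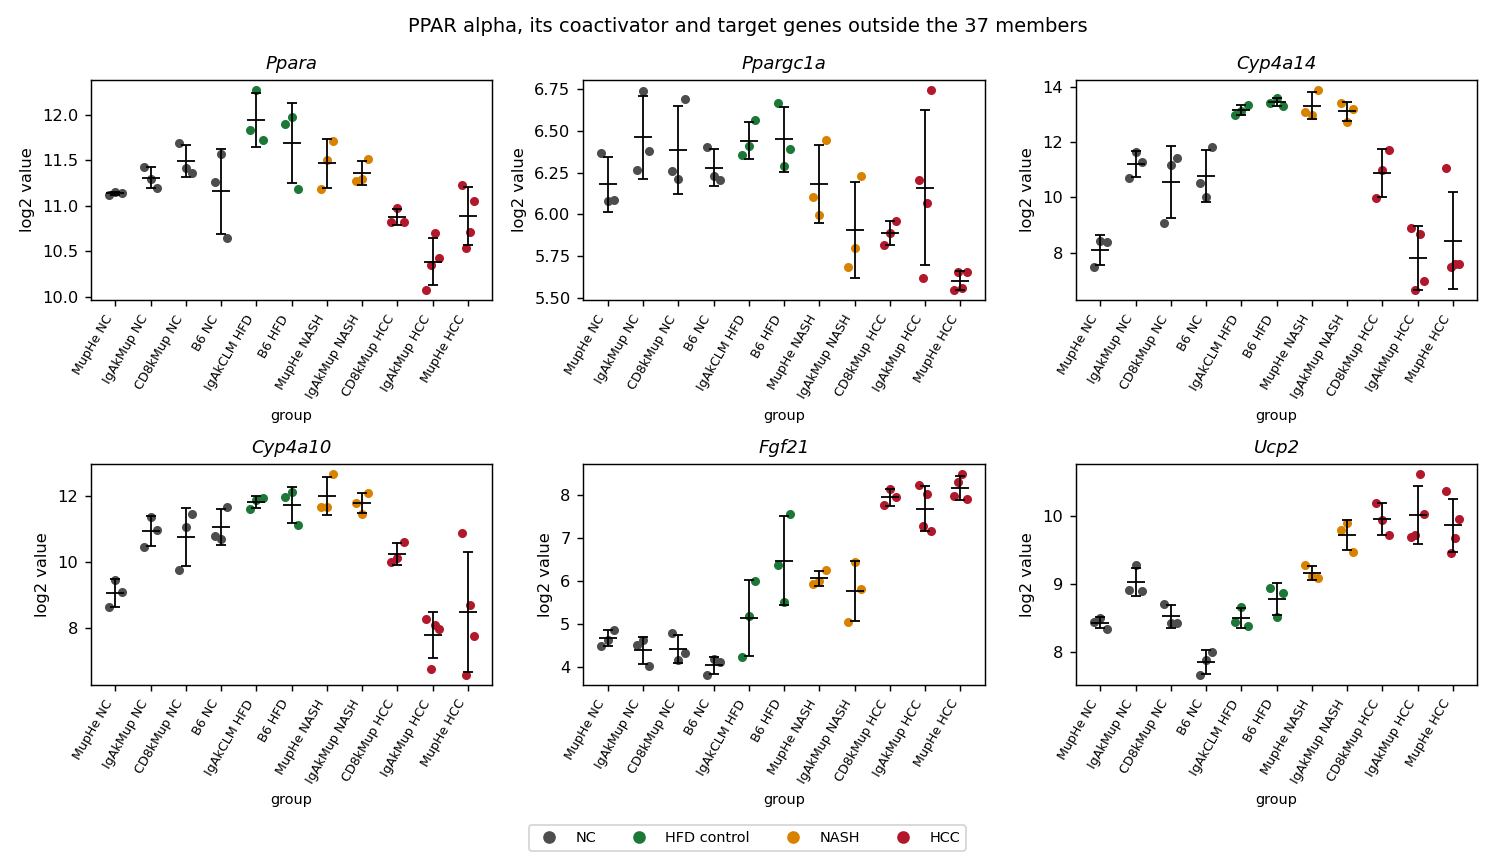
Log2 values of Ppara, Ppargc1a, Cyp4a14, Cyp4a10, Fgf21 and Ucp2 in every library of the 11 groups, with black bars for the group mean ± SD. Cyp4a14 is at 12.73 or above in HFD control and NASH livers and at most 11.70 in HCC, and Fgf21 in HCC, at 7.17 to 8.48, lies above every NASH liver and overlaps the HFD control livers, which reach 7.55.

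Some members share sequence with close copies, so reads could be split between them. Acot2, Acot1, Acot4 and Acot3 lie side by side on mm10 chromosome 12, between 83987861 and 84060402, and 24.5% of the 50-base windows of Acot2 transcripts also occur in Acot1. Of the windows of Acaa1b, 35.5% also occur in Acaa1a. How far this sharing changes the values of these genes was not tested. Low genes such as Hao2 are pulled toward their mean by the authors' log transformation, which makes their differences smaller.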

How the data were processed

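Poly(A)-selected RNA from liver or tumour tissue was sequenced as stranded libraries, per the labels' protocols. The deposited table holds the authors' regularized log2 values (rlog, which corrects for library size and shrinks genes with few reads toward their mean). Per the submitters' processing notes, the genome build was mm10 and STAR was used; Cuffdiff is listed for 29 high-fat diet samples, and HOMER and DESeq2 are listed for 12 NC samples, all without versions or roles. Whether all libraries were normalized together is not given in the sources used here, and read depth is unknown, so no counting error could be given.

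The 35 libraries matched to a group by name were used, and 6 columns that could not be assigned to a sample were not. In 1 limma fit (limma 3.58.1 under R 4.3.3), each group had its own mean and the variance prior followed a trend; it took the 12337 genes with a mean log2 value of at least 3. Tests are two-sided, with Benjamini-Hochberg adjustment over those genes and a threshold of 0.05, and the code was tested on simulated data. Alternatives changed the filter, scaling, variance prior, weights, groups fitted and libraries. Members and lists were chosen with earlier results of these data known. All 37 members may be named, from each other list at most 3 genes a direction by size of the difference in HCC against NASH or NASH against HFD control, and always Ppara and Ppargc1a. Some genes that this rule covers are not reported here. A comparison of protein sequences was planned and not run.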

Additional observations from a re-analysis of the deposited data

Results flagged for a closer look

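In groups of 4 tumours, 6 of 74 member and group pairs tested had a library far from the other 3, where chance alone marks about 1 in 20. MupHe HCC 3 was the lowest of its group in Acadl (10.28, with the nearest at 11.37), Hadha (10.67, nearest 11.59) and Decr2 (9.44, nearest 10.73). MupHe HCC 2 was the highest in Acot8 (6.79, nearest 6.27). IgAkMup HCC 8 was the lowest in Etfb (10.29, nearest 10.96) and Vnn1 (8.65, nearest 10.44).

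The tumour effect, HCC minus NASH, differed between IgAkMup and MupHe mice in 7 members, by a test of the difference itself in limma. The difference was -0.79 for Acadm (SE 0.24, adjusted p = 0.0324), -1.06 for Hadh (SE 0.26, adjusted p = 0.0113), -0.87 for Eci1 (SE 0.21, adjusted p = 0.00853) and -1.57 for Ehhadh (SE 0.47, adjusted p = 0.0311). It was -1.36 for Decr2 (SE 0.32, adjusted p = 0.00781), -1.09 for Pex11a (SE 0.33, adjusted p = 0.0354) and -0.94 for Cd36 (SE 0.30, adjusted p = 0.0419). The number of libraries behind each is 4 tumours and 3 NASH livers a genotype.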

How the results depend on the processing

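Several counts of members called moved with how the spread was estimated. Shares of all genes called under changed weights, scaling, filter or groups fitted are not reported here, so these counts have no background beside them. With only the compared groups fitted, the count was 2 for MupHe HCC against NASH (16), 20 for CD8kMup HCC against NC (10), 32 for MupHe NASH against NC (14), 34 for IgAkMup NASH against NC (16), 0 for IgAkMup against MupHe HCC (13), 8 for CD8kMup against IgAkMup HCC (23) and 0 for the difference of the tumour effects (7). With array weights it was 22, 33, 34, 7 and 14 for CD8kMup HCC against NC, MupHe and IgAkMup NASH against NC, IgAkMup against MupHe HCC and the difference of the tumour effects, 2 for NASH against HFD control, 4 and 1 within the Tri and SS tags, and 13 for IgAkCLM against B6 HFD control (1). The difference of the tumour effects had 4 calls with no filter on low values and 3 after quantile normalization, which gave 16 for CD8kMup HCC against NC and turned Cpt1a (0.056) and Hadha (0.13) in IgAkMup HCC against NASH and Acaa2 (0.039) in HCC against NC.

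Without MupHe HCC 3, IgAkMup HCC 5 and IgAkMup HCC 9, chosen after seeing the data, there were 28 calls for IgAkMup against MupHe HCC, 2 for CD8kMup against MupHe HCC and 21 for the difference of the tumour effects. Exchanging groups to match tags, also chosen after seeing the data, gave 4 for B6 HFD control against NC (23) and 3 for IgAkMup NASH against NC. These exchanges set different genotypes against each other. Leaving out 1 library at a time gave 31 to 33 calls for HCC against NASH, 13 to 21 for MupHe and 30 to 33 for IgAkMup HCC against NASH, 14 to 19 for HCC against NC, 7 to 10 for CD8kMup HCC against NC, 17 to 21 for B6 HFD control against NC, 6 to 13 and 7 to 14 for MupHe and IgAkMup NASH against NC, 0 to 1 for IgAkCLM against B6 HFD control and for Mup genotypes against B6 NC, 9 to 23 for IgAkMup against MupHe HCC, 0 to 6 and 17 to 23 for CD8kMup against MupHe and IgAkMup HCC, and 3 to 18 for the difference of the tumour effects. Shares of all genes are not given beside these counts, and causes of these shifts were not tested.

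With the replicate number as a block, in a fit of NC livers alone, 1 member was called for the Mup genotypes against B6, as without the block. Same-numbered NC livers deviated with correlations between -0.21 and 0.23, of which 3 of 18 were over 0.1, and 5 of 12 libraries correlated best with one of their own number, so the numbers were not taken to pair the samples. Other scalings moved the median of all genes by at most 0.07. Read depth is unknown, so it could not be said which low values are limited by it.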
